A study of Mus musculus with 96 samples.

Results

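The mitochondrial ribosomal protein genes are the nuclear genes whose products, with the mitochondrial ribosomal RNAs, build the ribosome of the mitochondrial matrix. They were taken as every probe whose symbol in the array annotation reads Mrpl or Mrps followed by a number. The rule used no measured value. It found 110 probes of 76 genes, of 16593 genes named on the array. By name 47 belong to the large subunit (Mrpl) and 29 to the small subunit (Mrps). They lie on 17 chromosomes. Mrpl44 was not analysed here.

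RNA was measured on 96 Illumina bead arrays of male mice, from brown fat (BAT, brown adipose tissue), the liver, skeletal muscle and the white fat of the epididymis (eWAT), 6 arrays for each condition in each tissue. The SiRT1 group were SIRT1Tg/Tg transgenics fed low fat chow ad libitum; SIRT1 is a deacetylase that depends on NAD. The CR group were WT mice under a caloric restriction scheme labelled EODF, an abbreviation that the labels leave unexpanded, for 3 months. The EX group were WT mice kept in a cage with a running wheel for 10 weeks, fed ad libitum. The WT group were C57/Bl6 mice fed the same low fat diet ad libitum. All were killed at 8 in the morning after fasting for 12 hours, so every value below is a fasted one. The labels do not name the promoter that drives the SIRT1 transgene or the muscle that was taken.

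The mitochondrial ribosome translates the few proteins that mitochondrial DNA encodes, all of them core subunits of the respiratory chain complexes and of ATP synthase. Its proteins come from the nucleus and are imported. Some descend from bacterial ribosomal proteins and keep their numbers, and others were added in mitochondria. BAT, which burns fat for heat, and skeletal muscle are rich in mitochondria, whereas a white adipocyte holds few. Factors such as NRF1, GABPA (an ETS protein), YY1 and the oestrogen-related receptors, with coactivators of the Ppargc1 family, are known regulators of nuclear genes for mitochondrial proteins.

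Values are log2 intensities after background correction, scaled over all arrays for the comparison of tissues and within a tissue for the comparison of conditions. A level can be compared between tissues or groups for one gene, not between genes, whose probes differ. Where 3 levels are given for a group they are its lowest, median and highest array. Detected probes per array, those above the upper 0.05 tail of the background, were 11536 to 12847 for BAT, 5841 to 12752 for liver, 8427 to 12321 for muscle and 13130 to 15381 for eWAT. The array labelled liver_1953_SiRT1 was the one at 5841, and its Sirt1 probe, at 4.48, was below the range of WT livers. The Sirt1 probe was higher in SiRT1 mice than in WT mice by 2.58 ± 0.11 (SE) in eWAT, by 1.83 ± 0.12 in muscle and by 1.37 ± 0.09 in BAT, with limma adjusted p of 7.78e-13, 3.74e-10 and 2.00e-09. In liver the difference was 0.86 ± 0.32 (adjusted p = 0.368). Tissue markers mostly fitted the labels: Ucp1 averaged 13.39 in WT BAT, Ckm 13.71 in WT muscle, Lep 12.52 in WT eWAT and Apoa1 13.76 in WT liver. Other listed markers went the other way. Elovl3, a brown adipocyte marker, averaged 8.589 in WT liver and 6.68 in WT BAT. Plin1, a white adipocyte marker, averaged 9.517 in WT BAT and 8.465 in WT eWAT. The probes of Fgb and Tat were not detected in WT liver, those of Alb, Dio2 and Fabp4 on 4, 1 and 2 of 6 WT arrays of liver, BAT and eWAT. Muscle RNA was measured in some BAT arrays, where the mean of 8 skeletal muscle markers spanned 4.24 to 11.55 in CR mice and 4.27 to 8.63 in WT mice, and epididymis RNA in single eWAT arrays of WT, CR and EX mice.

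A gene was kept in a tissue where its probe was detected on at least 6 of the 24 arrays. Of the 76 genes, 69 passed in all 4 tissues, Mrpl15 passed in all but muscle, and Mrpl45, which tethers the ribosome to the inner membrane, passed in muscle alone. The probes of Mrpl19, Mrpl21, Mrpl32, Mrps14 and Mrps36 passed in none. That left 70 genes in each tissue and 70 genes, 43 large and 27 small, in the comparison of WT tissues.

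In WT mice BAT had the highest level for 40 of the 70 genes and muscle for 27, while eWAT had the lowest for 49 and liver for 16. The order BAT, muscle, liver, eWAT held for 26 genes and the order muscle, BAT, liver, eWAT for 19. Over all 11246 features the highest level was in BAT for 19.1% and in muscle for 31.5%, the lowest was in eWAT for 24% and in liver for 32.9%, and these orders held for 3.18% and 6.77%. As shares of the members, the highest level was in BAT for 57.1% and the lowest in eWAT for 70%. The order of a single gene was often not settled. BAT stood apart from all 3 other tissues by test for 23 of its 40 genes, muscle for 10 of its 27, and eWAT was lower than all the others for 31 of its 49. Among all features, 7.96% were highest in BAT and apart from the other tissues, 18.7% highest in muscle and apart, and 7.32% lowest in eWAT and apart. Every neighbouring step passed for 13 of 70 genes, 18.6%, against 10.2% of all features. The distance from the lowest to the highest tissue had a median of 1.39 over the members and 1.14 over all features, on the log2 scale, where the median SD among 6 WT arrays of a tissue was 0.18 for a member. In bulk RNA, fewer cells of a type and less RNA per cell cannot be told apart.

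**Figure D1:**
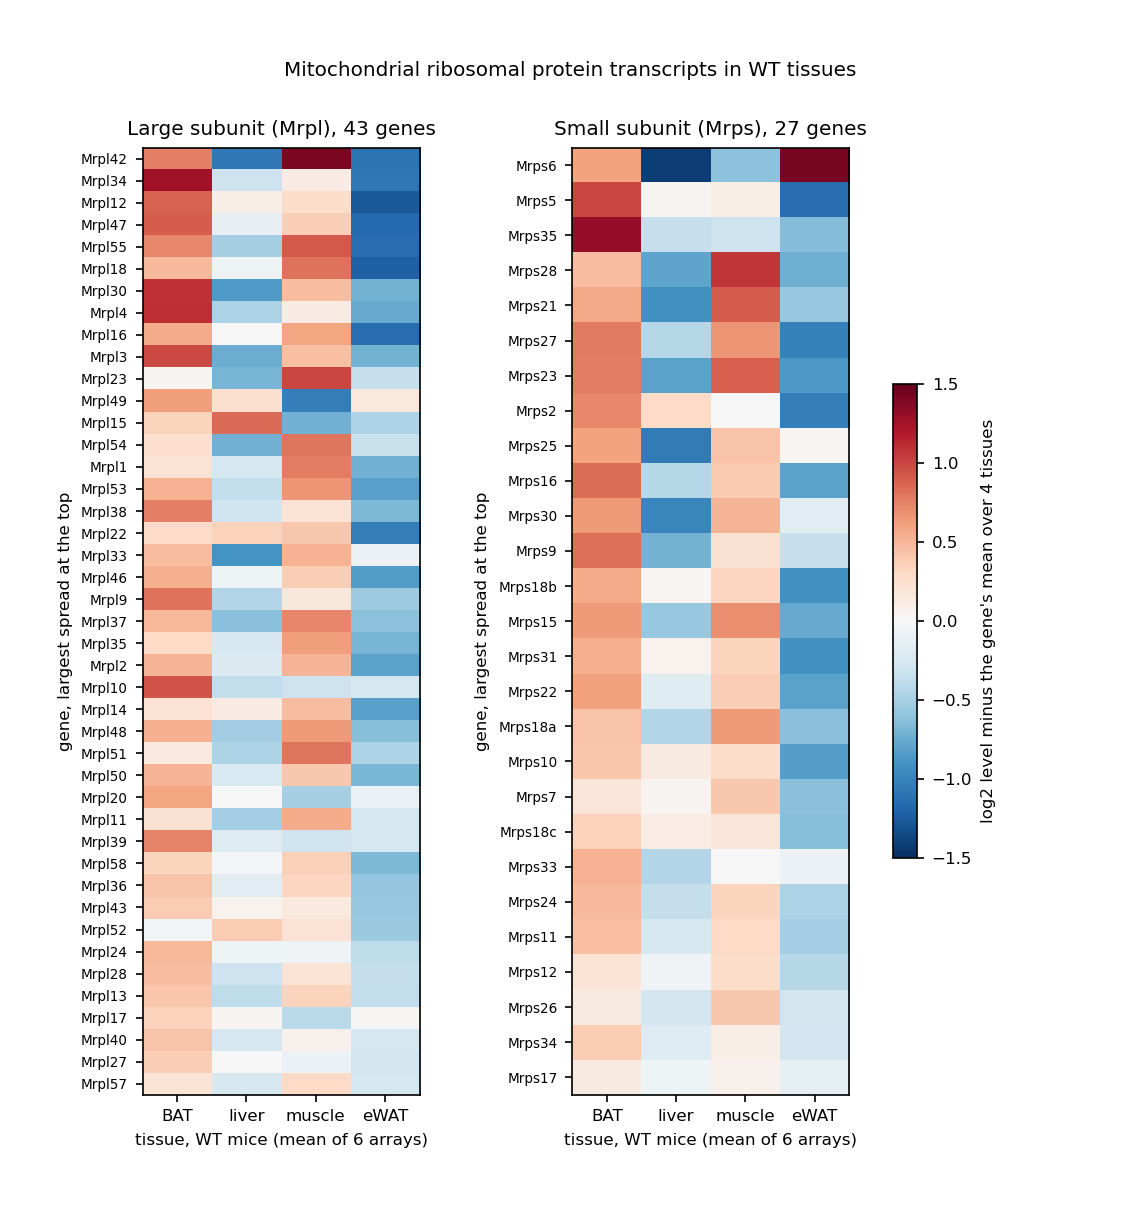
Mean log2 level of each member in WT BAT, liver, muscle and eWAT (6 arrays each) after subtraction of the gene's mean over the 4 tissues, large subunit at left and small subunit at right, ordered by spread. The eWAT columns are blue for most genes and the BAT columns red, and Mrps6 at the top right is the exception with its highest level in eWAT.

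BAT was set against the other 3 tissues first. Against eWAT, 68 of 70 members were higher in BAT and 1 was lower, where 24.2% of 11246 features were higher and 27% lower (limma, Benjamini-Hochberg adjusted p under 0.05). The median member difference was 1.04 on the log2 scale, against -0.00 for all features. Against liver, 63 members were higher in BAT and 1 lower, with a median of 0.76, where 35.4% of features were higher and 21% lower and the median of all was 0.10. Against muscle the members split: 25 were higher in BAT and 10 lower, with a median of 0.15, where 30% of features were higher and 26.1% lower. Without the WT BAT array with the most slow fibre RNA and the WT eWAT array with epididymis RNA, 69, 64 and 36 members passed against eWAT, liver and muscle, where 48.2%, 55.1% and 55.1% of features passed in either direction. The WT BAT arrays kept had skeletal muscle marker means from 4.27 to 8.18, so muscle RNA remained in some of them.

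Muscle and liver were then compared with what remained. Against eWAT, 61 members were higher in muscle and 4 lower, with a median of 1.03, where 32.3% of features were higher and 36.3% lower. Against muscle, 4 members were higher in liver and 51 lower, with a median of -0.55, where 29% of features were higher and 37.2% lower. Against eWAT, 34 members were higher in liver and 9 lower, with a median of 0.27, where 26.1% of features were higher and 36.7% lower. This last comparison depended on the scaling. Scaling arrays to a common median moved the median of all features between liver and eWAT to -0.43 and that of the members to -0.10, so that the member median exceeded that of all features by 0.34 under either scaling. Under median scaling the medians against eWAT were 0.68 for BAT and 0.46 for muscle, with all features at -0.29 and -0.41.

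**Figure D2:**
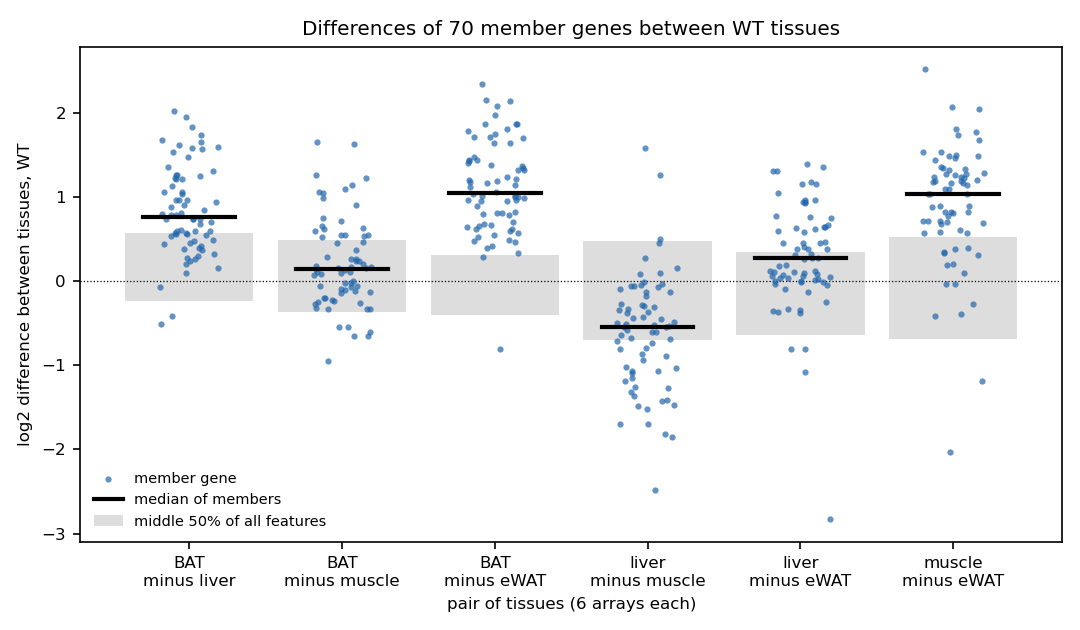
Log2 difference of each of 70 members (points) between WT tissues, with the member median (line) and the middle 50% of all 11246 features (grey). The member medians lie at 0.76, 0.15, 1.04, -0.55, 0.27 and 1.03 from left to right.

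By subunit, BAT exceeded eWAT for 42 of 43 large subunit genes (median 1.01) and for 26 of 27 small subunit genes (median 1.14), the remaining small subunit gene being lower. Against liver the counts were 39 of 43 (median 0.73) and 24 of 27 (median 0.88). Genes were also split by number alone, after the values were seen, into the low numbers of bacterial proteins and the higher numbers. These classes had medians of 1.04 and 1.06 against eWAT and of 0.71 and 0.92 against liver. A number does not settle the descent of each gene. The difference between these classes was not tested. Mrps18a and Mrps30, small subunit genes by name, are placed in the large subunit in solved structures.

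In the other conditions, whose arrays are different samples, BAT exceeded eWAT for 67 members in SiRT1 mice, 58 in CR mice and 67 in EX mice, with medians of 1.09, 0.80 and 1.14, where 23.4%, 20.9% and 25.6% of features were higher in BAT. In CR mice 20 members were higher in liver than in eWAT and 20 lower (median -0.02), where 23.9% of features were higher and 34.2% lower. Where a gene had a further probe, it had the sign of the probe used for 26 of 26 probes in BAT against eWAT, 24 of 26 in BAT against liver and 19 of 26 in liver against eWAT.

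Single members departed from the common pattern. Mrps6, the homolog of bacterial S6 on the platform of the small subunit, was the member with the widest spread, 2.83 on the log2 scale, and the one gene highest in eWAT. In WT mice its low, median and high levels were 9.31, 9.75 and 9.98 in BAT, 7.34, 7.68 and 8.15 in liver, 8.27, 8.40 and 9.06 in muscle, and 9.95, 10.63 and 10.90 in eWAT. The liver and eWAT ranges lay far apart. The log2 difference was -2.83 ± 0.17 (SE, n = 6 each) for liver against eWAT, a fold of 0.141 (limma adjusted p = 6.81e-14). It was -2.04 for muscle against eWAT and -0.81 for BAT against eWAT (adjusted p = 1.96e-04). All 3 neighbouring steps of its order, eWAT, BAT, muscle, liver, passed. In humans MRPS6 shares its promoter with SLC5A3, a myo-inositol transporter.

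Mrpl42, a large subunit protein found in mitochondria and not in bacteria, was highest in muscle. Its low, median and high levels were 10.54, 10.69 and 10.88 in BAT, 8.57, 8.86 and 9.18 in liver, 11.12, 11.39 and 11.44 in muscle, and 8.32, 8.96 and 9.10 in eWAT. BAT and muscle lay above liver and eWAT with no overlap, and liver and eWAT overlapped. Liver against muscle gave -2.48 ± 0.13 (fold 0.179, adjusted p = 1.76e-15) and muscle against eWAT 2.51 ± 0.13 (fold 5.70, adjusted p = 2.78e-15). BAT differed by 1.83 from liver and by -0.65 from muscle.

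Mrpl34, the small homolog of bacterial L34 that lies on ribosomal RNA, showed the order BAT, muscle, liver, eWAT with every step past the test. Its levels were 10.08, 10.33 and 10.56 in BAT, 8.51, 8.78 and 8.90 in liver, 8.84, 9.08 and 9.71 in muscle, and 7.31, 8.07 and 8.29 in eWAT. The lowest BAT array was above the highest array of each other tissue. BAT against eWAT was 2.33 ± 0.15, a fold of 5.04 (adjusted p = 1.16e-12), the largest member difference of that pair. Mrpl12, the stalk protein related to bacterial L7/L12, Mrps5, the S5 homolog whose loss lengthens life in worms, Mrpl47 and Mrps35 followed it, with differences of 2.15, 2.14, 2.07 and 1.97.

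Some members were highest in muscle and others lowest there. Mrpl23, near the exit of the peptide tunnel, had levels of 10.22, 10.32 and 10.54 in BAT and 11.12, 11.29 and 11.42 in muscle, with no overlap, a difference of -0.96 ± 0.12 for BAT against muscle (adjusted p = 1.39e-07). Mrps28, Mrpl51 and Mrpl54 were also lower in BAT than in muscle, with differences of -0.61, -0.65 and -0.55. Mrpl49 went the other way: it had 8.92, 9.35 and 9.47 in BAT, 8.65, 8.88 and 9.16 in liver, 7.36, 7.61 and 7.99 in muscle, and 8.50, 8.88 and 8.96 in eWAT. All muscle arrays were below all arrays of the other tissues. BAT against muscle was 1.65 ± 0.12 (fold 3.15, adjusted p = 2.90e-12), liver against muscle 1.26 and muscle against eWAT -1.19. Mrpl10 and Mrps35 were also higher in BAT than in muscle, by 1.25 and 1.63, and Mrpl17 was lower in muscle than in liver and in eWAT.

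Liver was the highest tissue for 2 members, Mrpl15 and Mrpl52. Mrpl15, the homolog of bacterial L15, had 5.31, 5.47 and 5.68 in BAT, 5.58, 6.06 and 6.28 in liver, 4.15, 4.41 and 4.73 in muscle, where 1 of 6 WT arrays detected it, and 4.59, 4.69 and 4.78 in eWAT. Liver overlapped BAT and lay above muscle and eWAT. It was higher in liver than in each other tissue: the difference was 1.31 ± 0.12 against eWAT (adjusted p = 2.27e-10), 1.58 against muscle and, for BAT against liver, -0.52 ± 0.12 (adjusted p = 3.88e-04). Mrpl52 had 7.86, 8.50 and 9.21 in BAT, 8.33, 8.99 and 9.63 in liver, 8.28, 8.80 and 9.37 in muscle, and 7.36, 8.08 and 8.40 in eWAT. Its liver level did not pass against BAT (-0.41 for BAT against liver, adjusted p = 0.139) or muscle (0.16 for liver against muscle, adjusted p = 0.580). Other members were higher in liver than in eWAT with their highest level elsewhere. Mrpl22, which lines the peptide tunnel and was highest in muscle, had 8.22, 8.63 and 8.94 in liver, against 6.84, 7.14 and 7.64 in eWAT, a difference of 1.39 ± 0.13 (adjusted p = 1.29e-09). Mrps2 and Mrpl12 were also higher in liver than in eWAT, by 1.31 and 1.36. At the other end, Mrps25 (-1.08), Mrpl33 (-0.81) and Mrps30 (-0.80) were lower in liver than in eWAT.

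Mrps16, Mrps22 and Mrpl3, whose human forms carry mutations in inherited defects of mitochondrial translation, were 1.64, 1.42 and 1.70 higher in BAT than in eWAT. For Mrps34, another such gene, the difference was 0.67, and for Mrps12, a decoding centre protein, it was 0.64. Mrpl11, at the base of the stalk, and Mrpl33 were highest in muscle, where Mrpl11 differed from BAT (-0.33 for BAT against muscle, adjusted p = 0.0303) and Mrpl33 did not pass (-0.05, adjusted p = 0.673). The 3 paralogs of bacterial S18 differed from eWAT by 1.06 (Mrps18a), 1.47 (Mrps18b) and 0.98 (Mrps18c) in BAT. For BAT against liver, Mrps18c did not pass (0.24, adjusted p = 0.332).

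The narrowest spread was that of Mrps17, with 10.01, 10.11 and 10.21 in BAT, 9.80, 9.92 and 10.00 in liver, 9.98, 10.04 and 10.11 in muscle, and 9.72, 9.86 and 9.90 in eWAT. Neighbours in its order, BAT, muscle, liver, eWAT, all overlapped, and its 4 means spanned 0.28. Mrpl57 and Mrpl27 followed with spans of 0.57 and 0.65, Mrpl57 close to background and detected on 4 of 6 WT liver arrays.

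The start regions of the genes with the widest and the narrowest spread over WT tissues are shown next, since the members varied together between tissues while these 6 lie at the ends of that variation. Each line gives the 150 bases before the annotated start on the strand of the gene, 5′ to 3′, from RefSeq (GRCm38.p6), with a match to CCGGAAG, an ETS motif, in capitals. The widest were Mrps6 (chr16:92058186-92058335, plus strand), Mrpl42 (chr10:95501950-95502099, minus strand) and Mrpl34 (chr8:71464776-71464925, plus strand). The narrowest were Mrpl27 (chr11:94653641-94653790, plus strand), Mrpl57 (chr14:57826089-57826238, plus strand) and Mrps17 (chr5:129715347-129715496, plus strand).
Mrps6: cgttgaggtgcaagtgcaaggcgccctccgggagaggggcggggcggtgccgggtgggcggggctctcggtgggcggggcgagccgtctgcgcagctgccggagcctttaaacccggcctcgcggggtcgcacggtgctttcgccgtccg
Mrpl42: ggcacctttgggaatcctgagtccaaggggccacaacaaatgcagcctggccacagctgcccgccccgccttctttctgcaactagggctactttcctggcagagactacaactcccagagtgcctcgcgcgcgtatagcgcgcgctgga
Mrpl34: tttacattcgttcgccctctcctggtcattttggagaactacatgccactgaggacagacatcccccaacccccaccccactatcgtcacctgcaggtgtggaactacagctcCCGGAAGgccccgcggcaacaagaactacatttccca
Mrpl27: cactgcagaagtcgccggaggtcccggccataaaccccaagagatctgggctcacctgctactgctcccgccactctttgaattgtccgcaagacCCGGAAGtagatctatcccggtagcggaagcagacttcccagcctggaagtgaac
Mrpl57: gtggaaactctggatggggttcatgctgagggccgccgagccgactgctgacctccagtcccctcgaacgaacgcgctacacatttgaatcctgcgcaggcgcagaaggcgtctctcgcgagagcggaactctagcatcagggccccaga
Mrps17: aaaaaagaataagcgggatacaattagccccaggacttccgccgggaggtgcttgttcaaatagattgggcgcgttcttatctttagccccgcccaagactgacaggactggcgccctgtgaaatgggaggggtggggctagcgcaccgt

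Both Mrpl34 and Mrpl27, one from each end, hold the ETS letters before the start. Mrpl57 holds them, and Mrpl42 holds AAGATGG, the core of the YY1 motif, in the bases just after the start and outside the printed stretch. Mrps6 and Mrps17, the widest and the narrowest, hold none of the 4 motifs searched. Start windows, 250 bases before to 50 after, were found for 67 of the 76 members. In these, CCGGAAG on either strand was found for 26 genes, 38.8%, against 9.93% of 27025 genes with a window. Matches of different motifs were counted separately and may overlap. The YY1 core AAGATGG was found for 13 genes, 19.4% against 7.28%, the NRF1 core GCGCATG for 8, 11.9% against 4.41%, and AAGGTCA, part of the motif of the oestrogen-related receptors, for 4, 5.97% against 5.38%. At least 1 of the 4 was found for 59.7% of members and 24% of all genes, and median GC content was 58.7% in member windows against 52.7% in all. Of 35 members highest in BAT 11 held the ETS letters, as did 13 of 25 highest in muscle. A match is a description of letters and no match says only that these letters are not in the window.

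Other parts of the mitochondrial translation machinery were read from lists made with earlier results known. Against eWAT, BAT was higher for 13 of 13 measured translation factors (median 1.25), led by Gfm1 (2.26 ± 0.14), an elongation factor, and Lrpprc (2.21 ± 0.11), which stabilises mitochondrial mRNAs. It was higher for 17 of 20 assembly and rRNA modification genes, 16 of 17 tRNA synthetase genes and 33 of 33 complex I subunit genes (median 1.75), with none lower. Among 11 genes of mitochondrial DNA transcription and its regulators 8 were higher, Ppargc1b by 3.95 ± 0.23 and Ppargc1a by 3.19 ± 0.25. The cytosolic ribosomal protein genes went the other way: 1 of 53 was higher in BAT and 38 were lower, with a median of -0.56. Between liver and eWAT, complex I had a median of -0.01 with 11 genes higher in liver and 9 lower, where the mitochondrial ribosomal proteins had 34 and 9.

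Within a tissue and group the members also varied together from array to array, as a description. After removal of group means, the mean correlation between pairs of members over 24 arrays was 0.153 in BAT, 0.271 in liver, 0.314 in muscle and 0.134 in eWAT, where all features had at most 0.0132. Cytosolic ribosomal proteins had 0.341, 0.404, 0.308 and 0.371 in the same order. Arrays share slides, scaling and depth, and single arrays weigh on these values, such as the SiRT1 liver array of low detection.

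**Figure D3:**
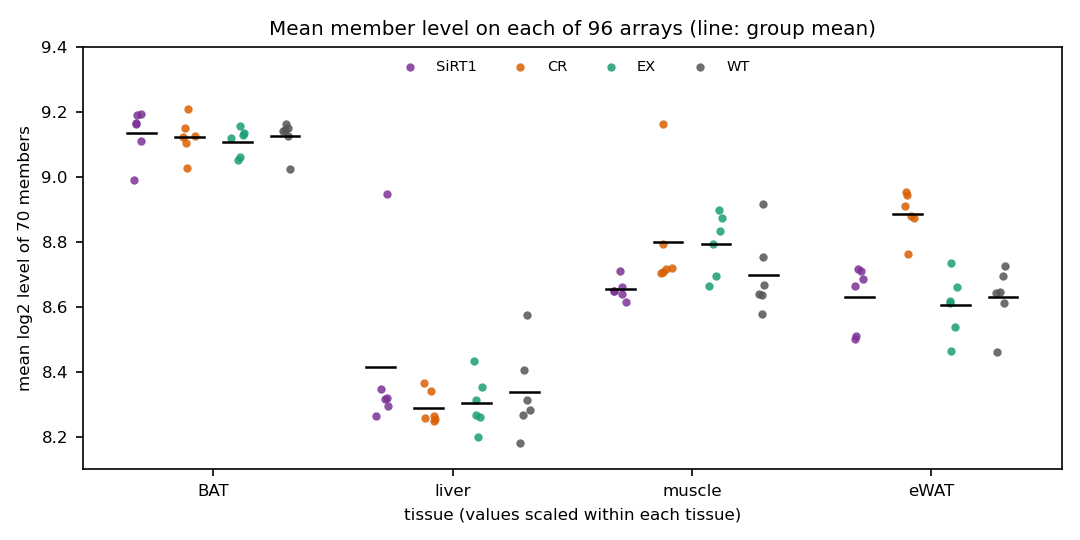
Mean log2 level of the 70 measured members on each array, by tissue and condition, with the group mean as a line, scaled within each tissue so that tissues cannot be compared here. CR eWAT arrays (8.76 to 8.95) lie above WT eWAT arrays (8.46 to 8.73), while single SiRT1 liver and CR muscle arrays at 8.95 and 9.16 lie above the rest of their groups.

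Among the 12 comparisons with WT, that of CR in eWAT had the highest member median. The mean member level had a low, median and high of 8.76, 8.90 and 8.95 on CR arrays, against 8.46, 8.64 and 8.73 on WT arrays, and the groups did not overlap. The 3 WT arrays with higher mouse numbers, as all CR mice have, spanned 8.643 to 8.725. Of 70 members, 66 had a positive difference, with a median of 0.19 where all features had 0.02. At an unadjusted p under 0.05, 24 members were higher and 0 lower, where 14.6% of all features passed in either direction. 1 member, Mrpl22, passed after adjustment over all features, where 3.61% of 11791 features did. In each comparison with WT, all 70 members differed by less than 2-fold.

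Mrpl22 had 8.22, 8.42 and 8.52 in CR eWAT, against 7.52, 7.79 and 8.26 in WT eWAT. All 6 CR arrays exceeded the WT median, and the highest WT array overlapped the lowest CR array. The means were 8.39 ± 0.10 in CR and 7.84 ± 0.24 in WT (SD, n = 6 each), and the fitted difference was 0.44 ± 0.10 (SE, limma adjusted p = 0.0150). CR mice all carry higher label numbers, while WT mice are 3 of each number series, which the fit takes as a term. The 3 WT mice of the same series averaged 7.99 and the other 3 averaged 7.70. Against the 3 WT arrays of its own series alone the difference was 0.40 (adjusted p = 0.0944). It also missed the threshold under median scaling (0.32, adjusted p = 0.108), and without the array WAT_2228_WT (0.38, adjusted p = 0.0827) or WAT_2232_WT (0.43, adjusted p = 0.0599).

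A further 7 members, 10% of 70, had CR levels entirely above WT levels without passing, as did 1.11% of all features, those past the threshold included. Overlap was read without the series term. In eWAT the member median for higher against lower mouse numbers was 0.14, where all features had 0.01. The part of the series in the overlap was not tested. Mrpl12 had 9.61, 9.83 and 10.00 in CR eWAT, against 9.12, 9.38 and 9.53 in WT eWAT, a difference of 0.34 ± 0.10 (adjusted p = 0.0775). Mrpl53, Mrpl30, Mrps26, Mrpl42, Mrpl33 and Mrps28 were the rest, with differences of 0.31, 0.33, 0.33, 0.33, 0.32 and 0.27. Mrps15 had the largest difference, 0.76 ± 0.32, but a wide spread, with 7.14, 7.73 and 8.28 in CR and 6.30, 6.92 and 7.21 in WT (adjusted p = 0.241). Mrps25 was lowest at -0.21 ± 0.20 (adjusted p = 0.744). Of 27 further probes, 25 had the sign of the probe used.

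Other genes of mitochondrial translation and respiration also had positive medians in CR eWAT. All 13 translation factors had positive differences with 0 past the threshold and 1 at an unadjusted p under 0.05 (median 0.19). Complex I had 5 genes past it, all higher, among 33 with a median of 0.28, led by Ndufs4 (0.52 ± 0.10), Ndufs8 (0.51 ± 0.09) and Ndufa5 (0.49 ± 0.10). Ppargc1b, a coactivator of mitochondrial genes, rose by 0.78 ± 0.16 (adjusted p = 0.00645). Cytosolic ribosomal proteins had a median of -0.05. Marker RNA of other cells was read on the same arrays. The mean of 7 macrophage markers was 7.22, 7.70 and 7.78 in CR, against 7.86, 8.46 and 9.09 in WT, without overlap. That of 7 brown adipocyte markers was 5.57, 6.13 and 6.21 in CR, against 5.21, 5.55 and 6.57 in WT, with overlap. Of the macrophage markers 6 were tested, all but Itgam, and C1qa, C1qb, C1qc and Lyz2 passed and were lower. Of the brown adipocyte markers 4 were tested and 0 passed. The part of these cells in the member values was not tested. The epididymis markers reached 8.24 on WAT_2241_CR and 7.003 on WAT_1960_WT. Without these arrays and 1 EX array, 8 members passed, Mrpl2, Mrpl12, Mrpl22, Mrpl30, Mrpl42, Mrpl50, Mrpl53 and Mrps22, all higher, where 6.82% of features passed in either direction, and the median over members was 0.21. Within the number series of the CR mice alone the median was 0.18. Under median scaling the median was 0.05, where all features were at -0.06.

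**Figure D4:**
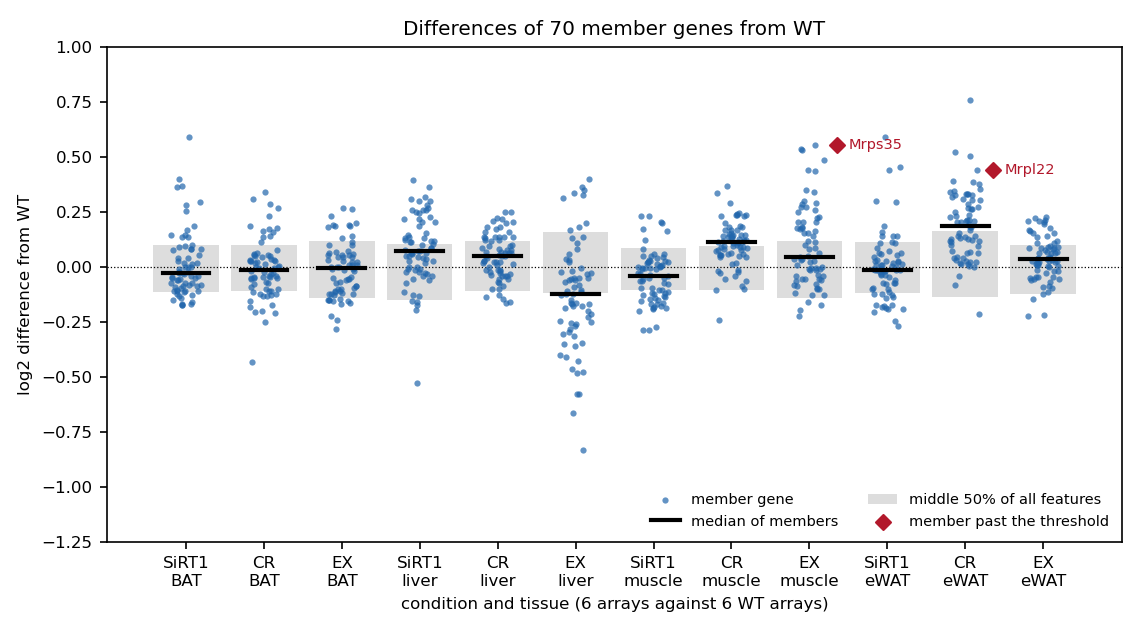
Log2 difference from WT of each of 70 members (points) in 12 comparisons, with the member median (line), the middle 50% of all features (grey) and the members past the threshold (diamonds, drawn beside their points). Member medians run from -0.12 (EX liver) to 0.19 (CR eWAT), and Mrps35 in EX muscle and Mrpl22 in CR eWAT passed.

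In EX muscle the shares of members that passed in either direction lay near those of all features. The shares of all features that were higher, or lower, are not given here. At an unadjusted p under 0.05, 13 members, 18.6%, were higher in EX muscle and 0 lower, where 16.3% of all features passed in either direction, and 1 member, 1.43%, passed after adjustment, where 2.03% of 9450 features did. The median over members was 0.05, with 42 positive and 28 negative. The mean member level was 8.67, 8.81 and 8.90 in EX and 8.58, 8.65 and 8.92 in WT, so the groups overlapped. The WT high was that of muscle_1961_WT, with 10321 detected probes, where the next WT array had 8.752. Leaving out 1 array gave member medians from 0.03 to 0.15, the highest without muscle_1961_WT. The 70 members of muscle include Mrpl45, which passed the filter in muscle alone.

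The member that passed was Mrps35, a small subunit protein found in mitochondria. It had 7.54, 7.96 and 8.17 in EX muscle, against 7.15, 7.37 and 7.64 in WT muscle. All EX arrays were above the WT median, and the lowest EX array lay within the WT range. The means were 7.92 ± 0.21 in EX and 7.39 ± 0.18 in WT (SD, n = 6 each), with a fitted difference of 0.55 ± 0.15 (SE, limma adjusted p = 0.0497). Within the number series that holds all EX mice the difference was 0.60 (adjusted p = 0.0261). The call rests on the whole set of arrays: it was lost without any 1 of the EX arrays muscle_1966_EX, muscle_1969_EX, muscle_1970_EX, muscle_1972_EX or muscle_1974_EX or the WT arrays muscle_1959_WT, muscle_1960_WT, muscle_1961_WT, muscle_2226_WT or muscle_2232_WT, with differences from 0.48 (without muscle_1959_WT) to 0.61 (without muscle_1961_WT).

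Mrps5 and Mrps9 came next and did not pass. Mrps5 had 7.32, 7.67 and 7.87 in EX muscle, against 7.04, 7.14 and 7.45 in WT muscle (0.49 ± 0.13, adjusted p = 0.0548), and Mrps9 had 8.79, 8.98 and 9.24 in EX, against 8.45, 8.57 and 8.85 in WT (0.44 ± 0.12, adjusted p = 0.0555). Mrpl14, at the interface of the subunits, had EX levels entirely above WT levels, 10.30, 10.60 and 10.79 in EX, against 9.79, 10.03 and 10.28 in WT (0.54 ± 0.16, adjusted p = 0.0819). Mrpl36 and Mrps28 had EX levels entirely below WT levels (-0.22 and -0.20). Of all features, 2.32% had EX levels entirely above and 1.86% entirely below WT levels. Complex I had 3 genes past the threshold, all higher, with a median of 0.19, led by Ndufa10 (0.53 ± 0.12), as did Fars2, the phenylalanyl tRNA synthetase of mitochondria (0.54 ± 0.12, adjusted p = 0.0220). Cytosolic ribosomal proteins had a median of -0.15 with 4 of 53 positive. The 6 slow fibre markers tested, all but Myh7, rose in the same arrays. The mean of all 7 was 8.38, 9.67 and 10.57 in EX muscle, against 5.13, 5.87 and 8.43 in WT muscle, and their part in the member values was not tested. Under median scaling the member median was -0.13, where all features were at -0.11.

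**Figure D5:**
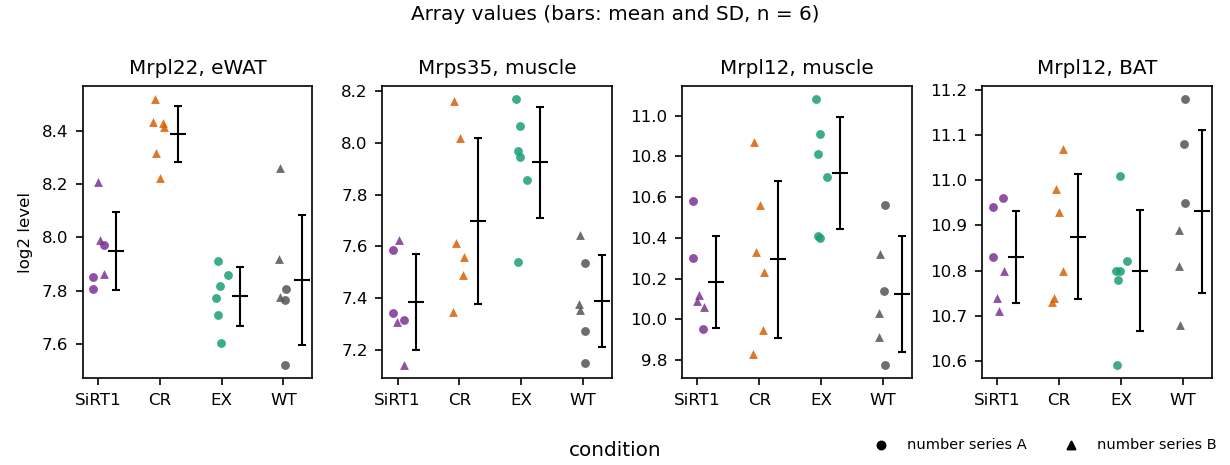
Array values of Mrpl22 in eWAT, Mrps35 in muscle and Mrpl12 in muscle and BAT by condition, with mean and SD beside the points (6 arrays each) and the 2 series of mouse numbers as circles and triangles. The 6 CR values of Mrpl22 lie between 8.22 and 8.52 and the 6 EX values of Mrps35 between 7.54 and 8.17.

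Whether the effect of a condition differed between tissues was tested with an F test over all 96 arrays. For EX, 0.862% of 12533 features passed. Mrpl12 passed and had 10.66, 11.02 and 11.35 in EX muscle, against 10.04, 10.34 and 10.82 in WT muscle, and 10.65, 10.86 and 11.07 in EX BAT, against 10.75, 10.98 and 11.24 in WT BAT. The groups overlapped in both tissues. The fitted effect was 0.53 in muscle, -0.24 in BAT, -0.23 in liver and 0.16 in eWAT, each ± 0.14 (SE), with adjusted p = 0.0475. The fit takes the number series within each tissue as a term, and EX mice are all in the lower series. Without that term the liver and eWAT levels of Mrpl12 lay close together. Its medians were 10.18 in EX and 10.2 in WT liver, and 8.83 in EX and 8.87 in WT eWAT. Mrpl45 was kept through muscle alone, where the EX group had the most detected arrays, so its levels are given as a description with no test. It had 4.70, 4.95 and 5.36 in EX muscle, against 4.34, 4.45 and 4.87 in WT muscle, where 6 of 6 EX arrays and 1 of 6 WT arrays detected it. In the other tissues at most 1 array of a group did. For SiRT1 and CR, limma called 0 members, where 0.247% and 2.81% of features passed, and 2 and 5 of 71 members had an unadjusted p under 0.05, where 6.8% and 11.8% of features did. For EX that share was 12.3% of features and 12.7% of members. Mrpl45 is among the members counted for SiRT1 and EX. The smallest adjusted p for CR was that of Mrpl33, 0.0789, with effects of 0.37 in eWAT and -0.17 in BAT.

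The remaining comparisons gave no member past the threshold. In CR muscle 59 of 70 members had positive differences, with a median of 0.11 and all features at -0.00. Limma called 0 members and 0% of features, and 1 member was higher at an unadjusted p under 0.05, where 6.11% of features passed in either direction. The array muscle_2241_CR had a mean member level of 9.16, where the other 5 had 8.70 to 8.79, and detected 8427 probes. Without it the median was 0.04. The slow fibre markers averaged 5.41, 8.46 and 10.15 in CR muscle, against 5.13, 5.87 and 8.43 in WT muscle, and their part was not tested. The 3 smallest p were those of Mrpl30 (0.24 ± 0.11), Mrps35 (0.29 ± 0.15) and Mrpl46 (0.24 ± 0.13), with adjusted p of 0.769, 0.827 and 0.845. Cytosolic ribosomal proteins also had a positive median there, 0.09, and under median scaling the member median was -0.04.

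In liver, EX mice had mostly lower values that no test singled out. Differences were negative for 53 members and positive for 17, with a median of -0.12 where all features had 0.02. Limma called 0 members, where 0.0201% of 9973 features passed, and 12 members were lower and 5 higher at an unadjusted p under 0.05, where 8.63% of features passed in either direction. Mrps25 had 4.62, 4.83 and 5.12 in EX liver, against 4.79, 5.29 and 5.93 in WT liver (-0.83 ± 0.26, adjusted p = 0.505). The direction depended on the scaling, with a median of 0.20 under median scaling, where all features were at 0.19, and the size on the number series, with a median of -0.02 without the series term. The liver member medians of the 2 series differed by -0.23 (higher numbers minus lower).

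In CR liver the median was 0.05, and limma called 0 members, where 0.271% of features passed. An unadjusted p under 0.05 was found for 0 members and 6.66% of features. Mrps30 had CR levels entirely above WT levels, as did 0.712% of features, with a difference of 0.21 ± 0.11 (adjusted p = 0.795). In SiRT1 liver the median was 0.07, and limma called 0 members, where 0.0602% of features passed. With 4 higher and 1 lower, 5 members had an unadjusted p under 0.05, as did 10.2% of features. These values include liver_1953_SiRT1, whose mean member level was 8.95 where the other 5 had 8.26 to 8.35. Without it the median was -0.01 and Mrpl57 passed (0.51, adjusted p = 0.0447), a gene close to background, where 0.241% of features passed. Mrpl35 had SiRT1 levels entirely below WT levels, as did 0.501% of features (-0.53, adjusted p = 0.253).

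In SiRT1 muscle the median was -0.04, and limma called 0 members, where 0.0317% of features passed. At an unadjusted p under 0.05 there were 1 member higher and 3 lower, and 8.46% of features. The higher member was Mrpl45, which passed the filter in muscle alone, where 6 of 6 EX arrays detected it, so its p supports nothing. Mrps22 had the smallest p (-0.28 ± 0.12, adjusted p = 0.554), and Mrpl11 and Mrps34 had SiRT1 levels entirely below WT levels (-0.29 each), as did 0.349% of features. In SiRT1 eWAT the median was -0.01, and limma called 0 members, where 0.0594% of features passed. At an unadjusted p under 0.05 there were 2 members higher and 3 lower, and 9.07% of features. Mrps18c (0.45, adjusted p = 0.385) and Mrpl20 (0.59 ± 0.24, adjusted p = 0.433) came first. In EX eWAT the median was 0.04, and limma called 0 members, where 0.00848% of features passed. The unadjusted p was under 0.05 for 0 members and 4.13% of features.

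In BAT, medians were -0.03 for SiRT1, -0.01 for CR and -0.01 for EX, and limma called 0 members in each, where 0.389%, 0.269% and 4.6% of 10025 features passed. At an unadjusted p under 0.05 there were 3 higher and 1 lower for SiRT1, 3 and 4 for CR, and 2 and 3 for EX, where 15.9%, 10% and 19.6% of features passed in either direction. The smallest p were those of Mrps24 in SiRT1 BAT, with levels entirely above WT, as for 0.658% of features (0.19, adjusted p = 0.138), Mrpl15 in CR BAT, with levels entirely below WT, as for 0.668% of features (-0.43, adjusted p = 0.148), and Mrpl40 in EX BAT (-0.28 ± 0.08, adjusted p = 0.0519). Mrpl20 differed by 0.59 ± 0.20 in SiRT1 BAT (adjusted p = 0.148). In EX BAT, where cytosolic ribosomal proteins had a median of -0.23 with Rps15, Rpl29, Rpl35 and Rps19 past the threshold and lower, the mitochondrial ones had -0.01, and Mterf4, an assembly factor, rose by 0.44 ± 0.13 (adjusted p = 0.0445). No slide with a SiRT1 array of BAT or eWAT also carried a WT array of that tissue, so slide and condition cannot be told apart there. Of the CR arrays of eWAT, only WAT_2230_CR shared a slide with a WT array of eWAT. Of the EX arrays of muscle, only muscle_1966_EX shared a slide with a WT array of muscle. Slide and condition can hardly be told apart in those comparisons either.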

How the data were processed

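Whole tissue RNA was measured on single-colour Illumina bead arrays. The deposited probe intensities were made with GenomeStudio, and the notes also name Partek, per the submitters' processing notes; no version is recorded there. The series matrix holds the authors' deposited log2 values of the same arrays, which share a median of 6.72 and were used only as an alternative. The intensities carry no detection p-values. Background was therefore read from the mode of each array's log2 density, corrected by the normexp model with an offset of 16, and quantile normalised within a tissue or over all 96 arrays. Probes of the same gene were reduced to the one with the highest mean. Of 25697 probes, 23962 were named through the gene ID, 16 through the platform symbol and 1719 had no gene.

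Tests used limma 3.58.1 in R 4.3.3 with Benjamini-Hochberg adjustment over all features and a threshold of 0.05. Comparisons with WT used the 24 arrays of a tissue with condition and mouse number series as terms: EX mice carry lower and CR mice higher numbers, and SiRT1 and WT mice 3 of each. The labels do not say what the series means. WT tissues were compared over 24 WT arrays, many from the same mice, as a number shared between tissues was read as 1 mouse. Same-numbered arrays deviated together with a median correlation of 0.0717 over 135 pairs, against -0.0118 over 729 other pairs. The p-values measure the spread between these arrays, and the number of arrays limits precision. The code was tested on simulated data. Named genes were the members past the threshold, up to 5 each way per tissue pair, the 3 smallest p per comparison with WT and members of known role. The members and lists were chosen with earlier results of these data known. Alternatives were other background, scaling, filter, probe, slide, series and array choices.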

Additional observations from a re-analysis of the deposited data

Results flagged for a closer look

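Each of 181 groups of 6 arrays was searched for a single array far from the rest, by Dixon's 95% limit, which chance alone passes in about 5% of groups, and 18 were found. The mean member level of the array liver_1953_SiRT1 was 8.948, where the other 5 arrays had 8.264 to 8.347. The same array had Mrpl35 at 4.171, Mrpl57 at 4.161 and Mrpl51 at 6.396, and it detected the fewest probes of all liver arrays. The mean member level of muscle_2241_CR was 9.162, where the others had 8.704 to 8.792, and its Mrpl30 was 10.93. The array BAT_2231_WT had the mean at 9.024, where the others had 9.126 to 9.164, and it carried slow fibre RNA.

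Single genes stood apart on other arrays. These were Mrps17 at 9.885 in CR liver, Mrps22 at 7.969 in SiRT1 muscle, Mrpl45 at 4.601 in WT muscle and Mrpl40 at 8.729 in SiRT1 BAT. Among WT arrays scaled over all tissues they were Mrpl42 at 11.12 and Mrps28 at 10.5 in muscle, Mrpl10 at 9.801 in liver, and in eWAT Mrpl49 at 8.503, Mrpl10 at 9.27, Mrpl34 at 7.315 and Mrps5 at 5.848. The eWAT values of Mrpl49, Mrpl10 and Mrpl34 come from 1 array, WAT_1961_WT.

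The effect of EX differed between tissues for Mrpl12 (limma F test, adjusted p = 0.04747) and Mrpl45 (adjusted p = 0.01233). The effect on Mrpl12 was 0.53 in muscle and -0.24 in BAT. The F test also flagged Mrpl45, which was kept through muscle alone, where 6 of 6 EX arrays and 1 of 6 WT arrays detected it. A difference was thus built into its selection, so its p supports nothing and is not given.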

How the results depend on the processing

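Counts are members past the threshold. The shares of all features under most of the settings below are not given here, so a changed count need not be particular to members. In EX muscle, 1 became 3 with the deposited matrix values, without background correction, within the lower number series alone and in the joint fits of 4 tissues with or without slide, 2 with slide as a random block, 6 without the series term, and 0 under median scaling, without the detection filter and with every probe as a feature. In CR eWAT, 1 became 3 with the matrix values and without background correction, 8 without the series term and without the arrays that stand apart, 9 in the joint fit without slide, and 0 under median scaling and within the higher series alone. In SiRT1 liver, 0 became 1 without the arrays that stand apart and in both joint fits. In BAT, 0 became 1 for SiRT1 with every probe as a feature, for CR without the series term, and for EX with detection on 12 arrays, without the filter, without the series term, with the matrix values and without background correction. For the CR effect differing between tissues, 0 became 1 with the matrix values and without background correction. In liver against eWAT the balance turned: under median scaling 41 passed, 15 higher in liver and 26 lower, and with quantile scaling within tissues and median scaling between them 42 passed, 20 higher and 22 lower. Mrps25 in EX liver was 0.193 under median scaling, against -0.83. Leaving out 1 array gave 0 to 1 in SiRT1 liver (1 without liver_1953_SiRT1), 0 to 3 in EX muscle, 0 to 2 in EX BAT (2 without BAT_1966_EX, 1 without BAT_2231_WT) and 0 to 4 in CR eWAT (0 without WAT_2228_WT or WAT_2232_WT, 3 without WAT_2241_CR, 4 without WAT_1960_WT). In EX muscle 3 passed without muscle_1976_EX, 2 without muscle_2231_WT and 0 without muscle_1969_EX, muscle_1970_EX, muscle_1972_EX, muscle_1974_EX, muscle_1959_WT, muscle_1960_WT, muscle_2226_WT or muscle_2232_WT. The alternative without the arrays that stand apart was chosen after seeing the data. The cause of these changes was not tested.

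With the mouse as a replicate block, 64 members passed for BAT against liver, 35 for BAT against muscle, 70 for BAT against eWAT, 57 for liver against muscle, 43 for liver against eWAT and 64 for muscle against eWAT. The shares of all features that passed with this block are not given here, so these counts show nothing particular to members. With a random block the tests of effects that differ between tissues gave 0 for SiRT1, 0 for CR and 2 for EX. The members tested there include Mrpl45, kept through muscle alone, whose p supports nothing. The shares of all features under the random block are not given here either. The block changed the call of 1 named member, Mrpl15 in muscle against eWAT (-0.21, adjusted p = 0.151). No paired analysis was possible for the comparisons with WT because each mouse belongs to 1 condition.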

Other observations

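Between BAT and liver of WT mice the cytosolic ribosomal protein genes were higher in BAT for 24 and lower for 5 of the 53 measured, with a median of 0.24, and complex I subunit genes were higher for 33 of 33, with a median of 1.62. Mitochondrial translation factors were higher in BAT than in liver for 9 of 13. Between liver and eWAT, translation factors were higher in liver for 12 of 13, with a median of 0.41, while cytosolic ribosomal proteins were lower for 43 of 53 and higher for 2, with a median of -0.83. Between muscle and eWAT, 33 of 33 complex I genes were higher in muscle, and 35 of 53 cytosolic ribosomal protein genes were lower and 7 higher. Among 4 mitochondrial ribosomal proteins with other names, Ptcd3 (1.93), Chchd1 (0.59) and Dap3 (0.45) were higher in BAT than in eWAT.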
